A study of Mus musculus with 14 samples.

Results

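The mitochondrial ribosomal proteins were taken as the symbols that begin with Mrpl or Mrps followed by a number and, at most, 1 letter from a to d. Among the 24015 symbols counted, 77 have this form. One of them is set aside by the rule and not analysed here, which leaves 76 genes, 47 of the large subunit (Mrpl) and 29 of the small subunit (Mrps). Total RNA was sequenced from mouse embryonic fibroblasts, connective-tissue cells grown from embryos of day 14.5, of strain 129s2 and passages 3 to 4. All cells spent 18 hours in their medium before harvest. Wild-type cells were kept in normal medium (WT-NT, n = 4) or without glucose (WT-GS, n = 3), and so were SirT7-/- cells (KO-NT with normal medium, n = 4, and KO-GS without glucose, n = 3). The series concerns SirT7, a sirtuin (an NAD-dependent enzyme of the nucleus), in the response to glucose starvation. Nothing in the labels says whether the replicates were separate cultures or embryos, or how the deletion was made.

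The mitochondrial ribosome makes the few proteins encoded in mitochondrial DNA, which are core subunits of the respiratory chain and of ATP synthase. Its small subunit reads the messenger RNA, and its large subunit joins the amino acids at the inner membrane. All its proteins are encoded in the nucleus, made in the cytosol and imported, and some have a counterpart in the bacterial ribosome while others exist only in mitochondria. In the current structures of the mammalian ribosome Mrps18a and Mrps30 lie in the large subunit in spite of their names, and Mrps36 has been reassigned to the oxoglutarate dehydrogenase complex. They are kept here under their symbols.

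Promoters of genes for mitochondrial proteins are known for sites of a few general activators, and 3 such motifs were searched, on both strands, from 250 bases before to 50 after each start site in RefSeq GRCm38.p6. Windows were found for 67 of the 76 members, 73 windows in all. The ETS core CCGGAAG, the core of sites of the GABP (NRF2) family, stood in 34.2% of the members' windows. Its share was 15.2% of the windows of genes tested in wild type and 8.86% of all windows. The YY1 motif AAGATGGC stood in 16.4% of the members' windows against 3.87% and 2.75%. The NRF1 motif was found in 4.11% against 1.84% and 0.971%, but this share rests on 3 windows, all of large-subunit members. Subunits had the ETS core in 30.4% (large) and 40.7% (small) of their windows. The stretches below, 30 bases each, come from members described below and show how the letters lie before the start site, written 5′ to 3′ on the gene's strand with the motif in capitals. A match describes letters, not a bound site. Labels of a change in starved SirT7-/- cells come from a fit without the libraries KO-NT 4 and KO-GS 3, explained below. With all libraries edgeR called 0 of the 76 members in those cells.

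Mrpl32, higher in starved cells, NRF1, chr13:14613105-14613134, minus strand: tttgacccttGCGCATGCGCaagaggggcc

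Mrpl9, higher in starved wild-type cells, NRF1, chr3:94443298-94443327, plus strand: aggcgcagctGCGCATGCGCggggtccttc

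Mrps27, higher, ETS core, chr13:99344727-99344756, plus strand: tggtaggaccaCTTCCGGcggaggcgggct

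Mrpl51, lower, ETS core, chr6:125192099-125192128, plus strand: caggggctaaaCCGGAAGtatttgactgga

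Mrpl52, lower in starved SirT7-/- cells, ETS core, chr14:54426851-54426880, plus strand: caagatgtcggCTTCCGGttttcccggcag

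Mrps16, lower in starved SirT7-/- cells, ETS core, chr14:20393546-20393575, minus strand: ttgggggcgctCTTCCGGgcttcaggctct

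Total counts per library lay between 59788270 and 91607861, and the lowest count of any member in any library was 162. Levels are given as counts scaled to the library total (CPM, the usual depth-scaled unit), with the SD over libraries. Sirt7 stood at 16.9 to 23.1 CPM in the wild-type libraries and at 0.301 to 1.41 CPM in those labelled SirT7-/-. The medium labels were less uniform. Each library was given a position along the 5161 genes called for starvation in wild type, scaled so that WT-NT averages 0 and WT-GS averages 1. KO-NT 4, as labelled, came out at 0.876, far from KO-NT 1 to 3 (-0.0358 to 0.0239). KO-GS 3, as labelled, came out at 0.162, far from KO-GS 1 (0.905) and KO-GS 2 (0.904). Hspa5, the endoplasmic reticulum chaperone BiP, was at 6333 CPM in KO-NT 4 and at 1066 CPM in KO-GS 3, against 1437 to 1556 CPM in KO-NT 1 to 3 and 5654 to 6251 CPM in KO-GS 1 and 2. Txnip, a gene that glucose induces, was at 5.53 CPM in KO-NT 4 and 118 CPM in KO-GS 3. Results on SirT7-/- cells are therefore given both with these libraries and without them. Summed fibroblast markers (10 genes, all detected) were at 43179 to 50674 CPM in WT-NT and 24169 to 26099 CPM in WT-GS, and macrophage markers (10 genes, none at 0 throughout a group) at 273 to 1745 and 13.1 to 329 CPM. In KO-NT and KO-GS, as labelled, fibroblast markers were at 28032 to 50235 and 25872 to 42690 CPM. Macrophage markers were at 353 to 638 and 107 to 981 CPM there. The abundant genes weigh most in the fibroblast sum. Over all libraries Col1a1 ranged from 2551 to 15484 CPM, Col1a2 from 4015 to 13090, Fn1 from 9424 to 14571 and Vim from 2554 to 3564. Skeletal muscle, epithelial and endothelial markers summed to at most 247, 12.1 and 22.04 CPM in any library. In RNA of a whole culture, fewer cells of a type and less RNA of its markers per cell cannot be told apart. The part of these shifts in the results below was not tested.

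All 76 members were expressed and passed the filter on low counts. Mean levels over the 14 libraries ran from 6.35 to 58.0 CPM in the large subunit (median 26.0) and from 5.70 to 45.5 CPM in the small subunit (median 26.4). Mrpl10, a protein of the stalk base that receives translation factors, was the most abundant member of the large subunit at 57.2 ± 5.98 CPM in WT-NT. Its small-subunit equivalent was Mrps7, a protein of the head of the small subunit, at 45.4 ± 4.95 CPM. The lowest were Mrpl55 (mean 6.35 CPM) and Mrps12 (mean 5.70 CPM). Per kilobase of the longest annotated protein-coding transcript, which may not be the one expressed, the subunits had medians of 18.6 (large) and 17.9 (small) CPM per kilobase. On that scale Mrpl33 was the highest at 61.9 and Mrpl57 the lowest at 3.43 in the large subunit, and Mrps21 the highest at 43.8 and Mrps35 the lowest at 3.67 in the small subunit.

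Glucose starvation in wild-type cells moved single members in both directions and left the median of both subunits near 0. Of the 76 members 12 rose and 5 fell (edgeR's quasi-likelihood test, Benjamini-Hochberg adjusted p under 0.05), which is 22.4%, against 33.8% of all 15263 genes tested. Among all genes 16.8% rose and 17% fell. In the large subunit 7 of 47 rose and 3 fell, with a median log2 change of 0.03, and in the small subunit 5 of 29 rose and 2 fell, with a median of 0.07. The median over all genes was -0.03. The share of members called was 21.3% in the large and 24.1% in the small subunit, both below the background. With Mrps18a and Mrps30 counted in the large subunit the shares were 22.4% and 22.2%. The central 50% of members lay between log2 changes of -0.21 and 0.22, and that of all genes between -0.48 and 0.34. With scaling by library size alone (33.7% of all genes called) the split was 11 higher and 8 lower and the large-subunit median turned to -0.01. By DESeq2 it was 13 higher and 9 lower (41.9% of all genes called).

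**Figure D1:**
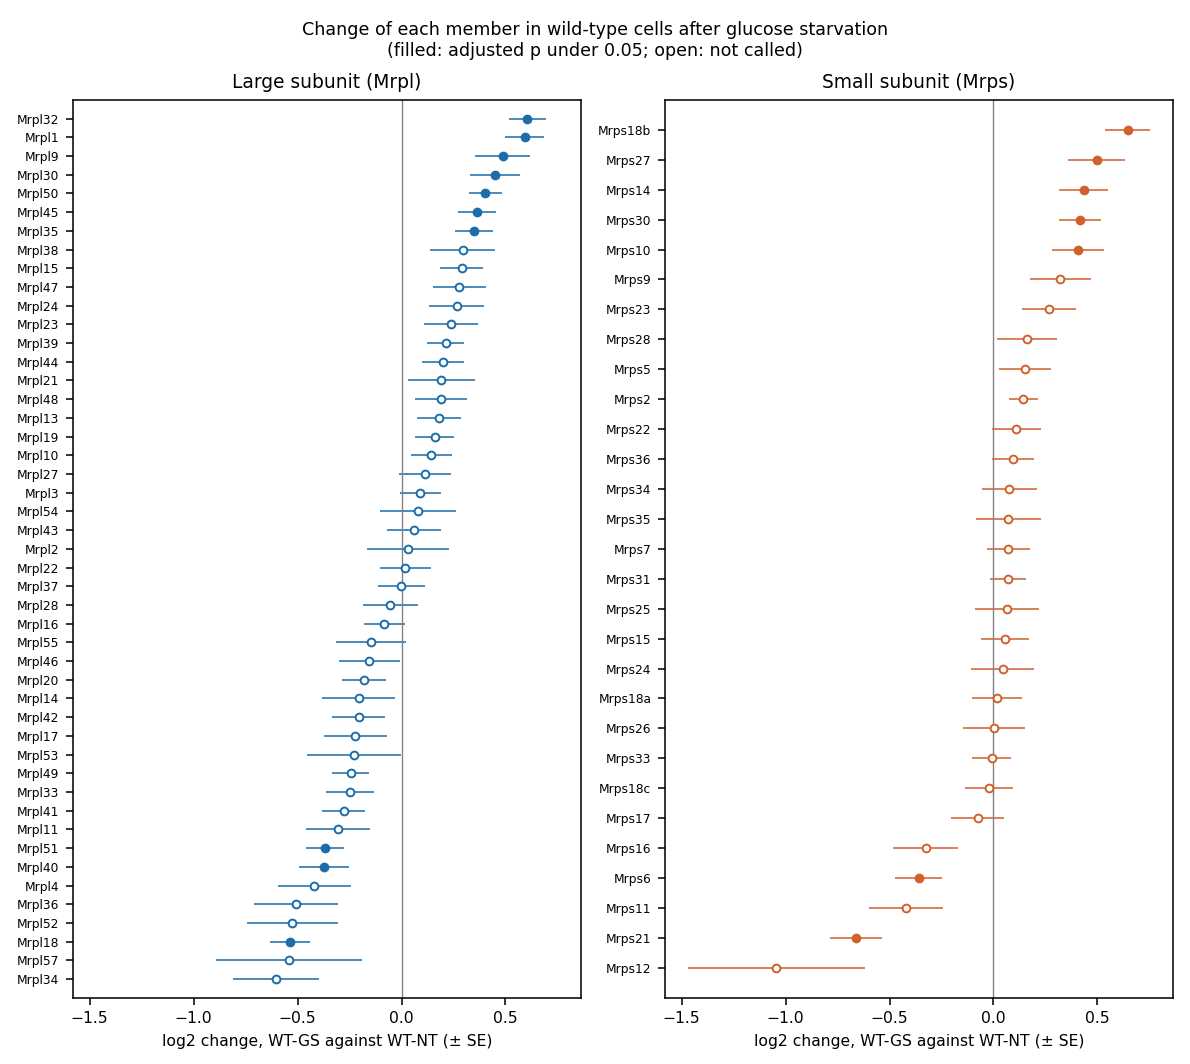
Log2 change of each member in wild-type cells (WT-GS against WT-NT) with its standard error, large subunit on the left and small subunit on the right, sorted by size. Filled points are the 12 members that rose and the 5 that fell at an adjusted p under 0.05, and open points did not pass.

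Of the large-subunit members that rose, Mrpl32 carries a presequence that the m-AAA protease of the inner membrane removes before the protein joins the ribosome. It stood at 21.9, 22.6, 22.2 and 20.9 CPM in WT-NT 1 to 4 and at 32.6, 29.99 and 34.3 CPM in WT-GS 1 to 3. The groups did not overlap, and the log2 change was 0.60 (SE 0.089, edgeR adjusted p = 0.00244). Mrpl1, a protein of the stalk beside the exit site, was at 14.8, 15.7, 15.3 and 15.7 CPM in normal medium. In starved cells it was at 23.6, 20.6 and 23.2 CPM, a log2 change of 0.59 (SE 0.093, edgeR adjusted p = 0.00313). Both genes had tight normal-medium libraries and no overlap. Mrpl50, found in mitochondrial and not in bacterial ribosomes, rose from 42.2, 39.0, 39.5 and 39.8 to 54.8, 48.0 and 51.7 CPM, a smaller log2 change of 0.40 (SE 0.080, edgeR adjusted p = 0.00789). Mrpl45, which anchors the large subunit to the inner membrane, rose from 40.8 ± 3.03 (SD, n = 4) to 50.9 ± 3.27 CPM (SD, n = 3), and Mrpl35 from 23.5 ± 1.74 to 29.02 ± 0.490 CPM. Mrpl30 and Mrpl9 completed the 7, with log2 changes of 0.45 (SE 0.12) and 0.49 (SE 0.13).

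In the small subunit the largest rise was that of Mrps18b. It is 1 of 3 mammalian homologues of a single bacterial protein, all 3 of which have a place in the ribosome. Its levels were 38.5, 41.4, 36.3 and 31.6 CPM in WT-NT 1 to 4 and 57.0, 53.7 and 57.6 CPM in WT-GS 1 to 3, with a log2 change of 0.65 (SE 0.11, edgeR adjusted p = 0.00403). The groups were well apart, with every starved library above every library in normal medium. The other homologues gave no such difference: Mrps18a was at 20.9 to 27.2 CPM in WT-NT and 21.7 to 24.1 in WT-GS (log2 change 0.02, SE 0.12). Mrps18c was at 16.5 to 21.04 and 16.1 to 18.8 CPM (log2 change -0.02, SE 0.12). Their ranges overlapped, and neither passed the test. Mrps30, the protein placed in the large subunit, rose from 25.3, 25.6, 22.6 and 21.5 to 28.8, 32.2 and 31.4 CPM (log2 change 0.42, SE 0.10, edgeR adjusted p = 0.0168). Mrps27, an RNA-binding protein of the pentatricopeptide repeat family, rose from 29.5 ± 4.60 (SD, n = 4) to 40.4 ± 2.66 CPM (SD, n = 3). Mrps14 and Mrps10, both with bacterial counterparts, rose by log2 changes of 0.43 (SE 0.12) and 0.41 (SE 0.13).

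The members that fell were Mrpl18, Mrpl51, Mrpl40, Mrps21 and Mrps6. Mrps21, a small protein of the platform, had the largest fall of these, from 25.4, 31.8, 23.2 and 24.4 CPM (WT-NT 1 to 4) down to 15.7, 16.5 and 16.1 CPM (WT-GS 1 to 3). Its log2 change was -0.66 (SE 0.13, edgeR adjusted p = 0.0071), and no libraries overlapped. Mrpl18, from the family that binds a small ribosomal RNA in bacteria, was at 37.2, 38.2, 33.9 and 31.5 CPM against 23.2, 24.3 and 23.2 CPM. The log2 change was -0.54 (SE 0.097, edgeR adjusted p = 0.00547). Both groups were again separate. Mrpl51 and Mrpl40, both without a bacterial counterpart, fell by 0.37 (SE 0.092) and 0.37 (SE 0.12) on the log2 scale. Mrps6 fell by 0.36 (SE 0.11), from 31.4 to 39.9 CPM down to 24.9 to 29.9 CPM. Exons of Mrps6 share 159 bases with Slc5a3, a myo-inositol transporter gene on the same strand, and 305 bases with Gm49711 on that strand, so its counts are uncertain. Overlaps with genes on the opposite strand also touch members that rose: 638 of 1079 exon bases of Mrps18b lie within Gm16279, 601 of 3319 of Mrps30 within B430218F22Rik, and 417 of 1849 of Mrps27 within 6430562O15Rik. The libraries do not mark strand, so reads from these pairs cannot be told apart.

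The largest negative log2 change was that of a gene that missed the test. Mrps12, a protein of the decoding centre, was at 3.53, 9.43, 9.45 and 3.60 CPM in WT-NT 1 to 4 and at 2.54, 3.43 and 3.24 CPM in WT-GS 1 to 3. The libraries in normal medium fell into a low pair (1 and 4) and a high pair (2 and 3), and the low pair lay just above the starved libraries. The log2 change was -1.04 with an SE of 0.43 (edgeR adjusted p = 0.094). Mrpl57 had the same low and high pair, with 6.10, 14.9, 14.2 and 6.61 CPM in WT-NT, but its low pair overlapped the starved libraries at 6.69, 7.66 and 6.60 CPM. In Mrpl36 the low pair again lay above the starved libraries, at 14.9, 24.5, 23.9 and 15.9 CPM in normal medium and 13.02, 13.9 and 13.7 CPM in starved cells. In these genes the difference between libraries of 1 group was as large as that between media. Across all members the coefficient of variation had a median of 12.9% in WT-NT and 5.65% in WT-GS, and it exceeded 20% in 11 members in WT-NT, in none in WT-GS, in 12 in KO-NT and in 13 in KO-GS.

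**Figure D2:**
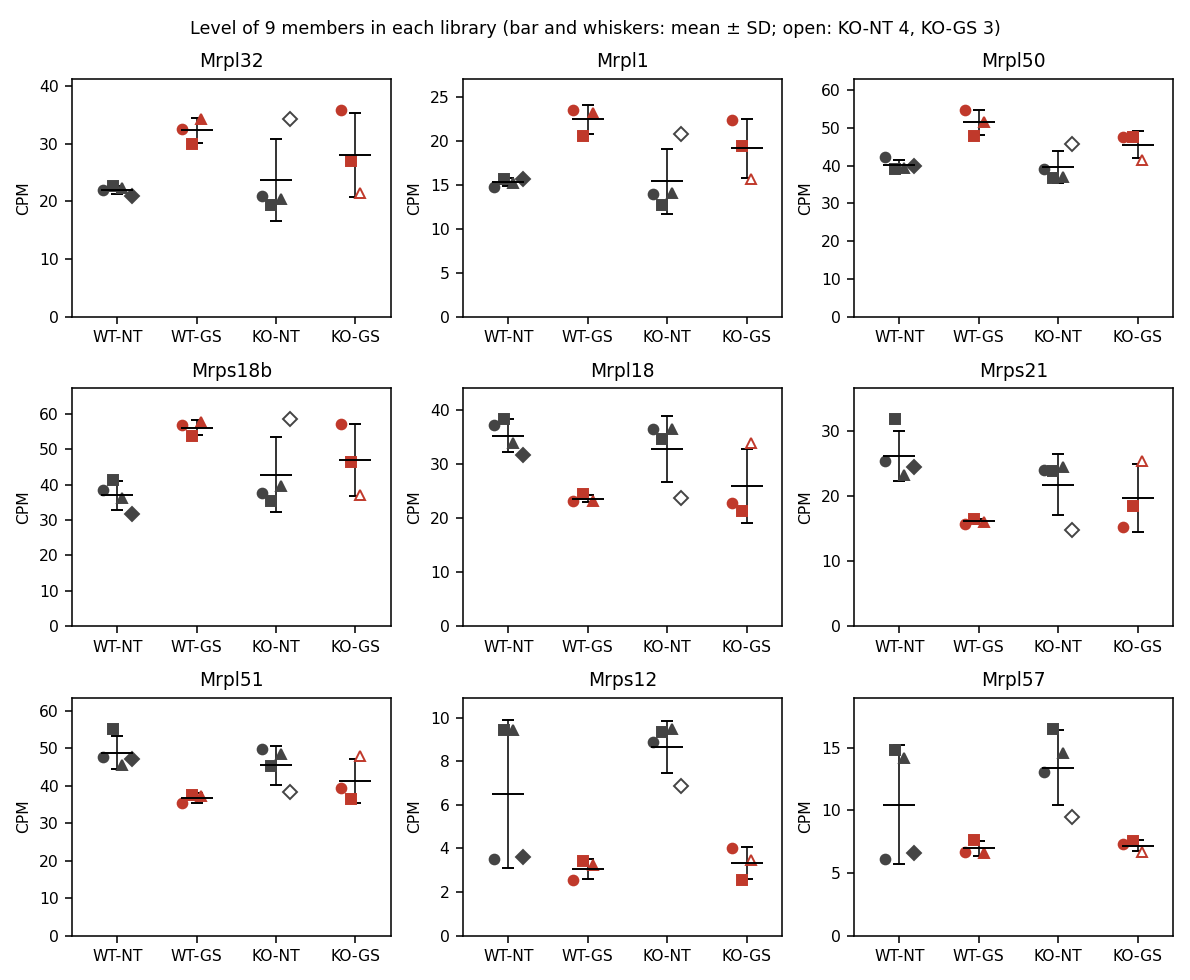
Level in CPM of 9 members in each library, by group, with the mean and SD as bar and whiskers. Circles, squares, triangles and diamonds are replicates 1 to 4, and open symbols are KO-NT 4 and KO-GS 3, which lie with the other medium in Mrpl32, Mrps18b, Mrpl18 and Mrps21. Mrps12 and Mrpl57 show the low and the high pair in WT-NT. In both of them KO-GS 3 (3.46 and 6.70 CPM) lies with KO-GS 1 and 2, its labelled group.

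Counts of members without overlap between the groups were 16 higher and 13 lower, which is more than passed the test, and the background by the same measure was 45.4% of all genes (20.2% higher, 25.2% lower). An unadjusted p under 0.05 was found for 27 members, beside 46.2% of all genes. Leaving out WT-NT 1, 2, 3 or 4 gave 8, 20, 8 and 23 called members, beside 25.2%, 34.8%, 25.6% and 44.5% of all genes. Leaving out WT-GS 1, 2 or 3 gave 7, 8 and 6, beside 18.4%, 21.5% and 18.4%. Called in all 15 alternatives to the fit were 6 of the 17 genes, namely Mrpl1, Mrpl18, Mrpl32, Mrpl50, Mrps18b and Mrps21.

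In SirT7-/- cells with all 7 libraries as labelled, no member was called by edgeR for starvation (0 of 76, against 0% of 15186 genes tested). At an unadjusted p under 0.05 there were 15 members (14.8% of all genes), and limma-voom called 0. DESeq2 called 8 members, all lower, with 3.83% of all genes called. The smallest p belonged to members that are low in starved cells. Mrps12 was at 8.87, 9.33, 9.50 and 6.89 CPM in KO-NT 1 to 4 and at 4.01, 2.56 and 3.46 CPM in KO-GS 1 to 3 (log2 change -1.39, SE 0.21, edgeR adjusted p = 0.297). Here the groups did not overlap, also with KO-NT 4 counted in its labelled group. Mrpl53 was at 21.9, 22.9, 24.1 and 22.99 CPM against 16.3, 13.2 and 15.03 CPM (log2 change -0.65, SE 0.11, edgeR adjusted p = 0.297). All of its exon bases lie within a second annotated gene, Gm42688, so this row is uncertain. Mrpl57 had a log2 change of -0.92 (SE 0.21) and Mrps11, a protein of the platform, one of -0.41 (SE 0.12), and these did not pass either. Groups without overlap were found in 1 member on the higher side and 16 on the lower, beside 5.97% and 6.55% of all genes (12.5% together).

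Once KO-NT 4 and KO-GS 3 were set aside, which leaves 3 against 2, 30 of 76 members were called, 11 higher and 19 lower. This is 39.5%, beside 39.7% of all 15284 genes tested (20.9% higher, 18.8% lower). Groups without overlap were found for 19 members on the higher and 28 on the lower side, beside 34% and 30.7% of all genes (64.8% together). Leaving out KO-NT 4 alone gave 10 called members, beside 14.5% of all genes. When KO-NT 1, 2 or 3 was left out as well, 19, 15 and 15 members were called, beside 23.5%, 19.3% and 21.6% of all genes. The large subunit had 7 higher and 15 lower members (46.8% called, median log2 change -0.09), and the small subunit 4 higher and 4 lower (27.6% called, median 0.02). The count over all members was thus near the background. The excess of falls over rises lay among large-subunit members in this fit, and the difference between the subunits was not tested.

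Of the 11 members that rose, 10 were also called in wild type. Mrpl32 was at 20.96, 19.4 and 20.3 CPM in KO-NT 1 to 3 and at 35.8 and 27.1 CPM in KO-GS 1 and 2 (log2 change 0.62, SE 0.12, edgeR adjusted p = 0.0146). For this gene the excluded libraries had 34.2 CPM (KO-NT 4) and 21.4 CPM (KO-GS 3), close to the levels of the other medium. Mrpl1 was at 13.96, 12.7 and 14.1 CPM against 22.4 and 19.4 CPM, with a log2 change of 0.60 (SE 0.098, edgeR adjusted p = 0.00851). Mrpl30, Mrpl45, Mrpl50, Mrpl35, Mrps27, Mrps14, Mrps30 and Mrps18b also rose, by log2 changes between 0.25 (Mrpl35) and 0.48 (Mrps27). Mrpl23 was the one member that rose here and was not called in wild type (log2 change 0.33).

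Of the 19 members that fell, 4 were also called in wild type and 15 were not. Mrpl18 was at 36.3, 34.5 and 36.4 CPM in KO-NT 1 to 3 and at 22.8 and 21.3 CPM in KO-GS 1 and 2, a log2 change of -0.72 (SE 0.066, edgeR adjusted p = 0.00225). Mrpl52, one of the shortest members at 463 bases, was at 30.9, 37.2 and 31.6 CPM against 18.8 and 17.1 CPM, a log2 change of -0.91 (SE 0.11, edgeR adjusted p = 0.00402). Mrpl36, which has the shortest protein of the large subunit in bacteria, was at 22.3, 23.7 and 23.8 CPM against 13.3 and 13.8 CPM (log2 change -0.80, SE 0.086, edgeR adjusted p = 0.00305). In each of these genes the libraries of the media stood apart. Mrpl17, next to the tunnel exit in bacteria, fell by 0.50 (SE 0.064) and Mrps16 by 0.43 (SE 0.059) on the log2 scale. Mrps12 (log2 change -1.51, SE 0.21), Mrpl34 (-1.03), Mrpl57 (-1.01, SE 0.14) and Mrps21 (-0.53, SE 0.12) fell as well. In Mrps12 and Mrpl57 the libraries KO-NT 1 to 3 were all at the high level (8.87 to 9.50 CPM for Mrps12), with no low pair as in WT-NT. The excluded libraries did not lie alike in all members that fell. In Mrpl18 and Mrps21 KO-GS 3 was at 33.8 and 25.4 CPM, close to KO-NT 1 to 3. In Mrpl52, Mrpl57 and Mrps12 it was at 18.3, 6.70 and 3.46 CPM, close to KO-GS 1 and 2. KO-NT 4 was at 22.02, 9.50 and 6.89 CPM in these genes, between the media.

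The starvation responses of the genotypes share no library and can be set side by side. Of the 17 members called in wild type 14 were also called in SirT7-/- cells without the 2 libraries, all in the same direction (10 higher, 4 lower), which is 82.4% of the wild-type calls and 46.7% of the SirT7-/- calls. Among all 15038 genes tested in both, these shares were 74.7% and 63.6%. The members' log2 changes had a Pearson r of 0.94 and a Spearman rho of 0.94 over the 76 genes, against 0.74 and 0.82 over all genes. These values describe genes within the same libraries, which are not independent, and the libraries left out were chosen by their position along the wild-type response. Mrpl9, Mrps10 and Mrps6 were called in wild type only, which is not a test of a difference.

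**Figure D3:**
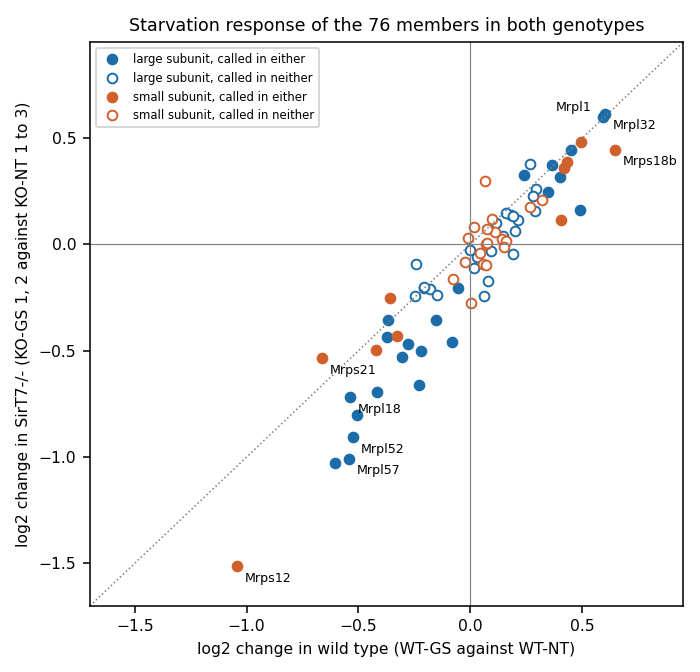
Log2 change in starvation of the 76 members in wild type (horizontal) and in SirT7-/- cells without KO-NT 4 and KO-GS 3 (vertical), by subunit, with filled points for genes called in either genotype. The dotted line marks equal changes. Mrps12, Mrpl57 and Mrpl52 lie at the lower left, below the line.

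The difference between the genotypes' responses was called for no member (0 of 76 by edgeR, against 0% of 15666 genes). At an unadjusted p under 0.05 there were 3 members (6.06% of all genes). DESeq2 (0.0319% of all genes called) and limma-voom (0%) called 0 members as well. The median of this difference was -0.19 in the large and -0.15 in the small subunit with all libraries, and -0.10 and -0.08 without the 2. The smallest p was that of Mrps10 (-0.42, SE 0.17, edgeR adjusted p = 0.68), which was at 18.6 to 26.0 CPM in WT-NT, 28.3 to 29.2 in WT-GS, 24.9 to 28.3 in KO-NT and 23.1 to 30.2 in KO-GS. The SirT7-/- ranges overlapped fully. Mrps18b (-0.54, SE 0.25), Mrpl43 (-0.36, SE 0.16) and Mrpl9 (-0.62, SE 0.29) followed. Mrpl9 was at 59.3, 35.2 and 35.4 CPM in KO-GS 1 to 3, so that its libraries disagreed even between KO-GS 1 and 2.

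Loss of SirT7 gave no called member in either medium. In normal medium edgeR called 0 of 76, against 0.00668% of 14971 genes, and no member reached an unadjusted p under 0.05 (3.77% of all genes did). DESeq2 (0.334% of all genes called) and limma-voom (0.00668%) called 0 members too. Log2 changes were positive in 56 members and negative in 20, with medians of 0.07 (large) and 0.08 (small). Over all genes 7597 were positive and 7374 negative. Without KO-NT 4 the split was 46 positive to 30 negative, beside 6965 to 8142 over all genes. The medians were then 0.03 and 0.05, again with 0 members called (0.0331% of all genes). The extremes were Mrps12 (0.43, SE 0.36) and Mrpl33 (-0.26, SE 0.13), a member of the exit-site region. Mrpl33 was at 30.4, 40.3, 32.6 and 32.8 CPM in WT-NT and at 30.3, 28.8, 29.6 and 23.3 CPM in KO-NT, the one member whose groups did not overlap (background 3.33%). Its nearest libraries were at 30.38 (WT-NT 1) and 30.35 CPM (KO-NT 1). Of its 478 exon bases 107 lie within Gm43809 on the same strand, so its counts are uncertain. Mrps33 had a log2 change of -0.22 (SE 0.095) and Mrps10 one of 0.27 (SE 0.12), and Mrpl49 one of -0.17 (SE 0.10), with overlapping groups in all 3.

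In medium without glucose edgeR again called 0 of 76 members, against 0.00668% of 14972 genes, and 0 at an unadjusted p under 0.05 (3.27% of all genes). DESeq2 (0.0868% of all genes called) and limma-voom (0.00668%) called 0 members. Here 58 members had a negative and 18 a positive log2 change, with medians of -0.08 (large) and -0.11 (small). Over all genes 7276 were negative and 7696 positive. Without KO-GS 3 the split was 57 negative to 19 positive, beside 7335 to 7821 over all genes. The medians were then -0.07 and -0.05, with 0 members called (0.0264% of all genes). Mrpl50 was at 54.8, 48.0 and 51.7 CPM in WT-GS and at 47.5, 47.6 and 41.4 CPM in KO-GS (log2 change -0.22, SE 0.10, edgeR adjusted p = 0.81). Its libraries did not overlap, as in 5 members in all (background 10.8%). Mrpl13 (-0.24, SE 0.11), Mrps18b (-0.30, SE 0.16) and Mrps31 (-0.17, SE 0.096) had the next smallest p. The median SE was 0.13 in normal medium and 0.11 without glucose. A change larger than its SE, as in Mrpl50, was still not called, so small changes could be missed.

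**Figure D4:**
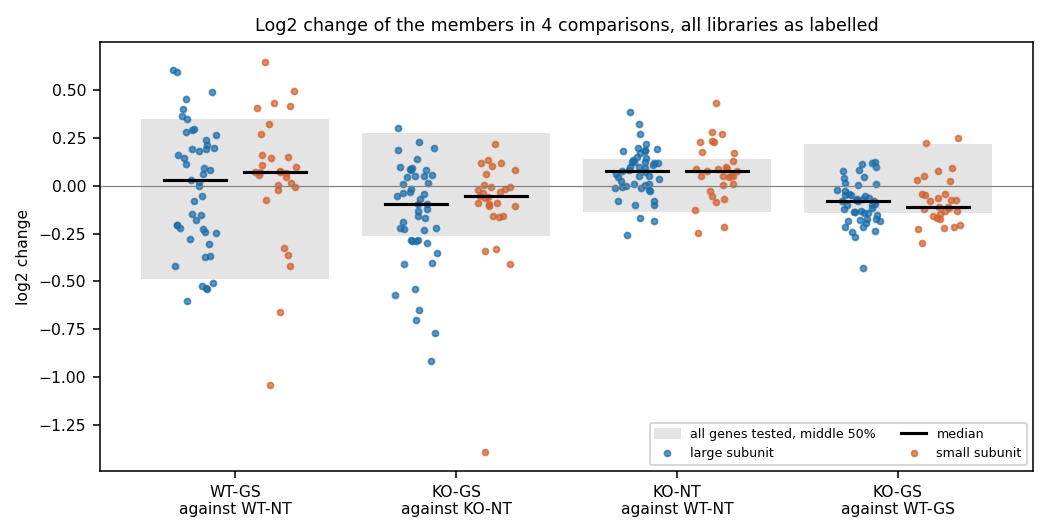
Log2 change of every member in the 4 pairwise comparisons with all libraries as labelled, large subunit in blue and small subunit in orange, with the median as a bar and the middle 50% of all genes tested as a grey band. Medians stay within 0.12 of 0 in each comparison, and the points spread most in starvation.

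The summed level of each subunit was compared across groups as a description. Large-subunit members together took 1350 ± 157 CPM in WT-NT, 1358 ± 38.6 in WT-GS, 1380 ± 35.4 in KO-NT and 1293 ± 83.95 in KO-GS. Small-subunit members took 737 ± 83.9, 771 ± 23.2, 761 ± 44.1 and 742 ± 59.2 CPM. Group means thus differed by less than the SD of WT-NT, in which WT-NT 2 was the highest library at 2428 CPM for all members and the others lay at 1863 to 2032 CPM. The ratio of the sums was steadier. In WT-NT 1 to 4 it came to 1.81, 1.83, 1.89 and 1.80, against 1.76, 1.77 and 1.76 for WT-GS 1 to 3. Every starved wild-type library was below every library in normal medium, by a small margin. In KO-NT 1 to 3 the ratio was 1.82, 1.84 and 1.87 and in KO-GS 1 and 2 it was 1.72 and 1.73. The library labelled KO-NT 4 had 1.73 and the library labelled KO-GS 3 had 1.79, each closer to the other medium, and with them the labelled SirT7-/- groups overlapped. Moving Mrps18a and Mrps30 to the large subunit gave means of 2.03 in WT-NT and 1.97 in WT-GS, still lower in starved cells.

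**Figure D5:**
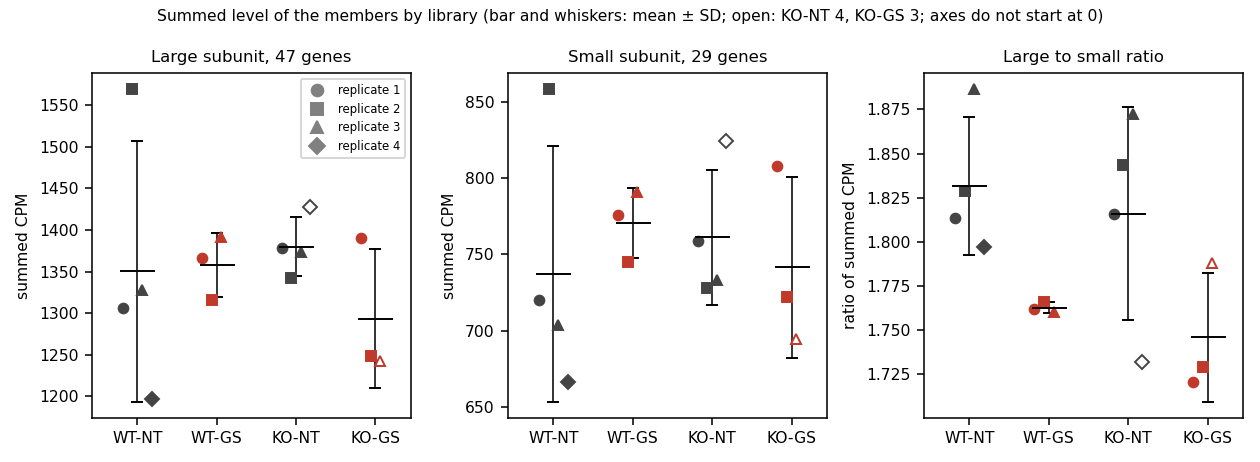
Summed CPM of the 47 large-subunit and 29 small-subunit members and the ratio of these sums in each library, with mean and SD as bar and whiskers. Axes do not start at 0, and open symbols are KO-NT 4 and KO-GS 3. Ratios in WT-GS (1.76 to 1.77) lie below those in WT-NT (1.80 to 1.89).

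Members were also sorted by whether current ribosomal protein names (uL, bL, uS, bS) mark a bacterial counterpart, which gave similar shares. Mrps18a and Mrps18b count here as members without a counterpart, although both are homologues of a bacterial protein. Of the 45 with a bacterial counterpart 7 rose and 3 fell in wild-type starvation (22.2% called), and of the 31 without one 5 rose and 2 fell (22.6%). Without KO-NT 4 and KO-GS 3 the shares in SirT7-/- cells were 40.0% and 38.7%. Positions by length and base composition were less even. Called members that rose in wild type had a median GC content of 45.8% and a median transcript length of 2273 bases, and those that fell 52.7% and 1219 bases. Over the 76 members the log2 change had a Pearson r of -0.32 with GC content and 0.33 with log2 length, against -0.13 and 0.03 over all genes. By Spearman rho these were -0.30 and 0.37 over the members, against -0.23 and 0.04 over all genes, so the GC values lay closer together. GC content weighted by counts was 50.01 to 50.7% in the WT-NT libraries and 49.5 to 49.7% in WT-GS, and its part in the members' changes was not tested. The 15 members under 800 bases summed to 314 to 433 CPM in WT-NT and 313 to 319 CPM in WT-GS, and the 61 others to 1549 to 1995 and 1748 to 1863 CPM.

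The motif counts can be set beside these calls. Of the 12 members that rose in wild type 2 held the ETS core, 2 NRF1 and 3 YY1 in their windows, and of the 5 that fell 3 held the ETS core and none the others. In SirT7-/- cells without the 2 libraries the ETS core was in 2 of the 11 that rose and in 10 of the 18 with a window that fell. Among members not called in wild type 20 of 50 held it.

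Other genes of mitochondrial translation were followed through a list of 42, of which all passed the filter. In wild-type starvation 12 rose and none fell (28.6%), with a median log2 change of 0.17. Of all genes 33.8% were called, 16.8% higher and 17% lower. Assembly and ribosomal RNA factors gave 7 of the 12 (of 21 listed), translation factors 2 of 11, transcription genes 2 of 4 and ribosomal proteins with other symbols 1 of 6. Tfb2m, a factor that opens mitochondrial promoters, was at 25.8, 23.6, 26.4 and 26.7 CPM in WT-NT and 43.9, 43.1 and 39.7 CPM in WT-GS (log2 change 0.76, SE 0.079, edgeR adjusted p = 0.000619). Mrrf, the ribosome recycling factor that splits the subunits after termination, was at 19.96, 21.6, 20.9 and 24.1 CPM against 38.8, 33.7 and 37.0 CPM (log2 change 0.80, SE 0.097, edgeR adjusted p = 0.00114). These groups were far apart. Mrm1, a methyltransferase of the large ribosomal RNA, and Gtpbp10, a GTPase of large-subunit assembly, rose by log2 changes of 0.71 (SE 0.094) and 0.62 (SE 0.085). With every library as labelled, edgeR called 0 of the 42 in SirT7-/- cells, with 2 at an unadjusted p under 0.05. Without the 2 libraries 11 rose and 1 fell (28.6%, against 39.7% of all genes, of which 20.9% rose and 18.8% fell). Mrrf (0.93, SE 0.082), Lrpprc, a mitochondrial messenger RNA stability factor (0.62, SE 0.057), Gtpbp10 (0.54, SE 0.084) and Oxa1l, an insertase of the inner membrane that binds the ribosome (0.49, SE 0.079), had the smallest p. Polrmt, the mitochondrial RNA polymerase, was the one that fell (-0.48, SE 0.11). Loss of SirT7 gave 0 called genes of the list in both media by edgeR, with none at an unadjusted p under 0.05 with all libraries.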

How the data were processed

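Per the submitters' processing notes, the tools were HISAT2 2.1.0, StringTie 1.3.3, Trimmomatic 0.36, FastQC 0.11.3, DESeq2 1.18.1 and SAMtools, with genome build mm9. Annotation and strand setting are not given in the sources used here. Estimated counts, deposited as whole numbers, cover 24015 symbols in 14 libraries, of which 4225 are 0 throughout. It was used unscaled. The kit named in the labels does not mark strand, so reads from overlapping genes cannot be told apart. Several members (Mrpl23, Mrpl27, Mrpl48, Mrpl51, Mrps33 and Mrps36) have pseudogenes.

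Counts were fitted in R 4.3.3 with edgeR 4.0.16 (robust quasi-likelihood F-test, TMM, filterByExpr with a minimum count of 10 and a minimum total count of 15). P-values were adjusted by Benjamini-Hochberg over all genes tested, and genes were called under 0.05. Each pairwise comparison used its 2 groups only, and the difference between genotypes used all 14 libraries. The SE was worked back from the F-test. Replicate libraries differed by more than sampling noise, and p-values measure only the spread between these samples, which may be technical. A count of 0 would allow up to 0.0502 CPM in the smallest library (limit of 3 counts), for counting error only. Alternatives were DESeq2 1.42.0, limma-voom (limma 3.58.1), library size alone, RLE factors, a stricter filter (a mean count of 50 and 1 CPM throughout a group), no filter, 1 fit of all 14 libraries, the replicate number as a block, leaving out KO-NT 4 and KO-GS 3, and leaving out each library. Lengths, GC content and exon overlaps came from GENCODE and promoters from RefSeq, both of GRCm38, another build than that of the counts. Length and GC content are those of the longest protein-coding transcript annotated for each gene, which may not be the one expressed. The analysis was tested on simulated data.

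The members, lists, motifs and the choice of pairwise fits were made with earlier results of these data known. Named with values were up to 5 called members per subunit and direction with the smallest p, or 2 per subunit where none was called, the most and least abundant members, Mrps18a, Mrps18b, Mrps18c and Mrps30, up to 4 listed translation genes per comparison, and Sirt7, Hspa5 and Txnip as checks. Other members named were chosen after their values were seen.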

Additional observations from a re-analysis of the deposited data

Results flagged for a closer look

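Each of the 76 members, the summed level of each subunit and their ratio were examined in WT-NT and in KO-NT, the groups of 4 libraries. In 18 of 158 such sets 1 library stood apart from the other 3 by a gap that chance gives in about 1 in 20 groups. Of these, 12 concern the library labelled KO-NT 4. It had 23.6 CPM for Mrpl18 (the others 34.5 to 36.4), 34.2 CPM for Mrpl32 (19.4 to 20.96), 27.9 CPM for Mrpl35 (23.1 to 23.5), 14.7 CPM for Mrps21 (23.8 to 24.5) and 47.1 CPM for Mrps27 (27.7 to 28.5). It also had 62.1 CPM for Mrpl30 (40.3 to 41.5), 59.6 CPM for Mrpl24 (38.7 to 40.7), 36.001 CPM for Mrpl2 (31.0 to 31.6) and 26.98 CPM for Mrpl23 (17.1 to 18.3). Lower values were 47.2 CPM for Mrpl17 (60.2 to 62.2), 15.1 CPM for Mrpl36 (22.3 to 23.8) and 30.01 CPM for Mrps16 (34.7 to 35.4). In these 12 genes KO-NT 4 differs from KO-NT 1 to 3 in the direction of the wild-type log2 change in starvation, which passed the test in 6 of them. For Mrpl2 that change was only 0.03, and its mean CPM went the other way (29.01 in WT-NT, 28.8 in WT-GS). KO-NT 2 had 41.99 CPM for Mrpl37 (40.0 to 40.2). In WT-NT, replicate 2 had 51.8 CPM for Mrpl9 (37.1 to 39.3), 22.96 CPM for Mrps11 (14.9 to 15.8), 21.7 CPM for Mrps24 (15.1 to 15.8) and 8.24 CPM for Mrpl55 (5.92 to 6.06), and replicate 3 had 22.3 CPM for Mrpl49 (24.7 to 24.9).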

How the results depend on the processing

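For starvation in wild type the 17 called members became 15 to 22 under other tests, scalings, filters and the fit of all 14 libraries, and 6 to 23 when 1 library was left out. For starvation in SirT7-/- cells, 0 became 8 with DESeq2, 30 without the libraries KO-NT 4 and KO-GS 3, and 0 to 10 when 1 library was left out. The 30 became 28 to 34 under other tests, scalings and filters, 15 to 32 when 1 more library was left out, and 6 (0 higher, 6 lower) with the replicate block, alternatives chosen after seeing the data. A group left with 1 library is assumed to vary like the other. The cause was not tested. No member was called for SirT7 loss or for the difference between genotypes under any alternative run. No direction was reversed among the members named by rule in each comparison, under the alternatives run for it. Over the members named by rule and the alternatives, calls in wild type were lost in 53 cases and unchanged in 172. In SirT7-/- cells with all libraries they were gained in 11 and unchanged in 53, and without the 2 libraries lost in 36 and unchanged in 180. The ratio of large to small summed CPM moved by more than the SD of its group when Mrps18a and Mrps30 were counted with the large subunit (2.03 in WT-NT, 1.97 in WT-GS, 2.004 in KO-NT, 1.94 in KO-GS), and per kilobase of transcript (1.98, 1.89, 1.99 and 1.86). In WT-GS it was 1.79 without the most abundant member of each subunit. Samples with the same replicate number did not all deviate together (correlations from -0.12 to 0.46), so they were not taken as pairs. In wild type 4 of the 6 libraries with a shared number lay closest to their own number, a hint from the data only. With the replicate block 15 members were called in wild type (6 higher, 9 lower, against 12 higher and 5 lower without it), 11 of them among the 17, and 0 in the other comparisons with all libraries. Depth limits little: the lowest member count was 162.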
